A study of Mus musculus with 30 samples.

Results

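Cirbp and Rbm3 are the genes of the cold-inducible RNA-binding proteins, and they were chosen by symbol as 2 of the 21652 genes in the deposited tables. Their mRNA was followed through 30 bulk poly(A) RNA libraries of 2 fat depots, brown adipose tissue (BAT) and the white depot that the labels call iWAT (inguinal fat), taken from C57BL/6J males aged 7 to 8 weeks. No allele or transgene is labelled. The 6 groups of 5 libraries were iWAT and BAT at 22 °C, iWAT and BAT after 6 h at 6 °C, and iWAT and BAT after 24 h at 6 °C. The control groups are labelled 22 °C, but the protocol for housing states 24 ± 2 °C. Mice were caged in groups of 5, and nothing in the labels says which libraries came from separate animals or which iWAT and BAT libraries came from the same mouse. The p-values below therefore measure the spread between samples, which may be technical in part. Neither the cage nor the clock time of collection is given here for any library. Differences between groups in either cannot be told apart here from a response to cold.

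Cirbp and Rbm3 are small nuclear and cytoplasmic proteins with a single RNA recognition motif followed by a glycine-rich tail, and both are known as proteins that mammalian cells make more of when they are cooled mildly. They bind mRNA and affect its stability, its polyadenylation and its translation, and Cirbp also affects the rhythm of clock gene mRNA. Much of their own control is known to lie in splicing: in cultured cells, temperature changes the splicing of Rbm3 through an exon that sends the transcript to nonsense-mediated decay, and the efficiency with which Cirbp introns are removed. BAT makes heat in the cold, and iWAT is a subcutaneous white depot known to gain brown-like adipocytes with prolonged cold.

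In iWAT, Rbm3 mRNA rose in the cold, though its call at 6 h depended on the scaling and on single libraries. Cirbp mRNA did not pass the test at either time. A direct test of the ratio of Rbm3 to Cirbp in iWAT did not pass after adjustment at either time. In BAT neither gene passed the test at 6 h or at 24 h. The 24 h response of Rbm3 was smaller in BAT than in iWAT by the test of that difference. Both genes were lower in BAT than in iWAT in all 3 conditions.

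The promoter of Cirbp is shown because cold-induced transcription of this gene has been ascribed to a short element upstream of it, the mild-cold responsive element with the letters TCCCCGCC, which was found to bind the transcription factor Sp1. The window runs from 250 bases before to 50 bases after the gene's start in RefSeq (build GRCm38.p6, plus strand, chr10:80167589-80167888), and the capitals mark the match to that element.

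Cirbp: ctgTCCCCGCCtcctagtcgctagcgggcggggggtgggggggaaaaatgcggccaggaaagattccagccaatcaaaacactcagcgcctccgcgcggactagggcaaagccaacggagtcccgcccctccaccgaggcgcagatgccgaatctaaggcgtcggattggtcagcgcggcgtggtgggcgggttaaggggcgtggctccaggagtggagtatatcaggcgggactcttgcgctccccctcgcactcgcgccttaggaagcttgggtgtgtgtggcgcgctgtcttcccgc

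The element occurred once in these 300 bases, beginning at base 4 on the plus strand, when both strands were searched. Of all 32851 promoter windows of the same length in the table, 5.38% held it. The window also held 3 matches to the GC box GGGCGG, the first at base 26, which occurred in 35.7% of all windows, and 2 matches to CCAAT, which occurred in 37.4%. None of these overlapped the element. The heat shock element pair GAANNTTC (7.86% of windows) and the cAMP response element TGACGTCA (1.79%) had no match in it. The window had a G and C content of 65.7%, against a median of 52.7% over all windows. RefSeq lists a further start of Cirbp with the window chr10:80167921-80168220, which held 4 GC boxes and no match to TCCCCGCC. These matches describe letters, not bound sites. No promoter of Rbm3 is printed.

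Total counts assigned to genes ranged from 25.3 to 40.99 M (M, 1e6) over the 30 libraries. Rbm3 had 1230 to 8327 counts per library and Cirbp 287 to 2258. Tissue labels were checked by Ucp1, the uncoupling protein of brown fat, whose mean was 270 ± 298 CPM in iWAT and 11860 ± 1310 CPM in BAT at 22 °C (SD, n = 5). CPM is counts per 1e6 of a library total that was multiplied by its TMM scaling factor. The adipocyte marker list was present throughout, with a summed level of 24157 to 43725 CPM. Skeletal muscle markers stood at 3494 CPM in iWAT at 22 °C replicate 2, at 2.99 to 7.88 in the other iWAT libraries of that group, and at 2.19 to 8453 across the BAT libraries. Ppargc1a, a coactivator that drives mitochondrial biogenesis and responds to cold, rose in iWAT (log2 fold change 2.52 ± 0.42 at 6 h and 2.74 ± 0.43 at 24 h) and in BAT (2.39 ± 0.26 and 2.08 ± 0.26), each ± SE.

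Per unit of gene length, Rbm3 was the more abundant of the pair. The deposited FPKM (fragments per kilobase of gene and per 1e6 counts) gave Rbm3 means of 30.3, 31.7 and 42.7 in iWAT at 22 °C, 6 h and 24 h, and 11.1, 11.5 and 11.8 in BAT. Cirbp had 17.7, 15.8 and 15.9 FPKM in iWAT and 5.21, 4.20 and 4.76 in BAT. In iWAT at 22 °C, 7.93% of the genes with a value above 0 had a higher mean FPKM than Rbm3 and 13.1% a higher one than Cirbp. In BAT at 22 °C the shares were 16.6% and 29.3%. After 24 h in the cold, only 5.69% of genes in iWAT stood above Rbm3. The FPKM of every library corresponded to a length of 4.698 kb for Rbm3 and 2.604 kb for Cirbp, so a level per length depends on those lengths.

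**Figure D1:**
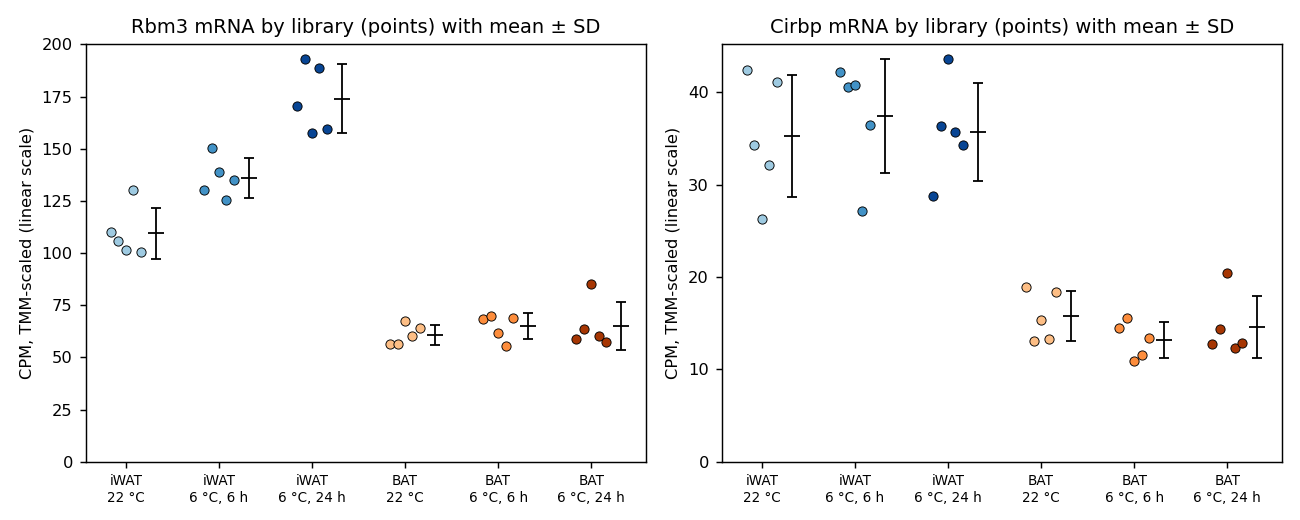
CPM (linear scale) of Rbm3, left, and Cirbp, right, in each of the 30 libraries (points), with the mean and SD of the 5 libraries of a group beside them. Rbm3 in iWAT lies at 100 to 130 CPM at 22 °C and at 158 to 193 CPM after 24 h at 6 °C, while the Cirbp groups of a depot overlap.

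Rbm3 (ENSMUSG00000031167) had 110, 106, 101, 130 and 100 CPM in the iWAT libraries at 22 °C. After 6 h at 6 °C it had 130, 150, 139, 126 and 135 CPM. Replicate 4 of the controls stood among the cold libraries, and the other controls lay below all of them. The group means were 109.5 ± 12.2 and 136 ± 9.40 CPM (SD, n = 5 each). The log2 fold change was 0.29 ± 0.09 (SE, 95% interval 0.11 to 0.47, Benjamini-Hochberg adjusted p = 0.0274 by edgeR), in a comparison that called 23% of the 13689 genes tested. This call was lost (adjusted p = 0.597) when libraries were scaled by their totals alone, which gave 0.06, and leaving out single libraries lost it in 6 of 10 cases, namely 22 °C replicates 1, 2, 3 and 5 and 6 h replicates 2 and 5.

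The scaling matters here because the TMM factors of the iWAT libraries at 22 °C were 1.19 to 1.38 and those at 6 h were 1.02 to 1.20. Under totals alone the median log2 fold change of all genes moved from -0.03 to -0.26, and the calls from 1769 higher and 1379 lower to 607 higher and 4176 lower. Relative to the median of all genes, Rbm3 stood at 0.32 under TMM factors and at 0.33 under totals alone. Its deposited FPKM, which carry no such factor, had means of 30.3 ± 2.09 and 31.7 ± 3.61.

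After 24 h at 6 °C, Rbm3 in iWAT had 171, 193, 158, 189 and 159 CPM. All 5 libraries lay above all 5 controls and above all 5 libraries of the 6 h group, as a description without the share over all genes. The mean was 174 ± 16.5 CPM (SD, n = 5), and the log2 fold change against 22 °C was 0.65 ± 0.09 (95% interval 0.47 to 0.84), a 1.57-fold rise (adjusted p = 0.000464 by edgeR), where 23% of genes were called. Scaled by totals alone the value was 0.49 (adjusted p = 0.00212), with the median of all genes at -0.20. The value without the control library that held skeletal muscle markers was 0.64, and it lay between 0.61 and 0.74 when any 1 library was left out. Of the 13689 genes tested, 5.62% had a higher log2 fold change.

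Between 6 h and 24 h, Rbm3 in iWAT differed by a log2 fold change of 0.36 ± 0.09 (95% interval 0.18 to 0.55). The groups did not overlap, and the share of all genes that separate in this way is not given here. The adjusted p was 0.196 by edgeR, so the difference did not pass the test. That comparison called 0.00731% of genes, a single gene, with 1351 genes at an unadjusted p under 0.05. DESeq2 called 109 genes, Rbm3 among them (0.36, adjusted p = 0.0235).

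Cirbp (ENSMUSG00000045193) had 42.4, 34.3, 26.3, 32.2 and 41.1 CPM in iWAT at 22 °C. After 6 h it had 42.3, 40.6, 40.8, 27.1 and 36.5 CPM, and after 24 h 28.8, 36.4, 43.6, 35.7 and 34.3 CPM. The 3 groups covered nearly the same range. Their means were 35.3 ± 6.62, 37.5 ± 6.16 and 35.8 ± 5.30 CPM (SD, n = 5 each). The log2 fold change was 0.06 ± 0.15 at 6 h (95% interval -0.25 to 0.37, adjusted p = 0.775 by edgeR) and 0.01 ± 0.15 at 24 h (-0.30 to 0.31, adjusted p = 0.986). Its difference between the cold times was -0.06 ± 0.15 (adjusted p = 0.928). The direction of these small values turned with the scaling, to -0.17 at 6 h and -0.16 at 24 h under totals alone.

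**Figure D2:**
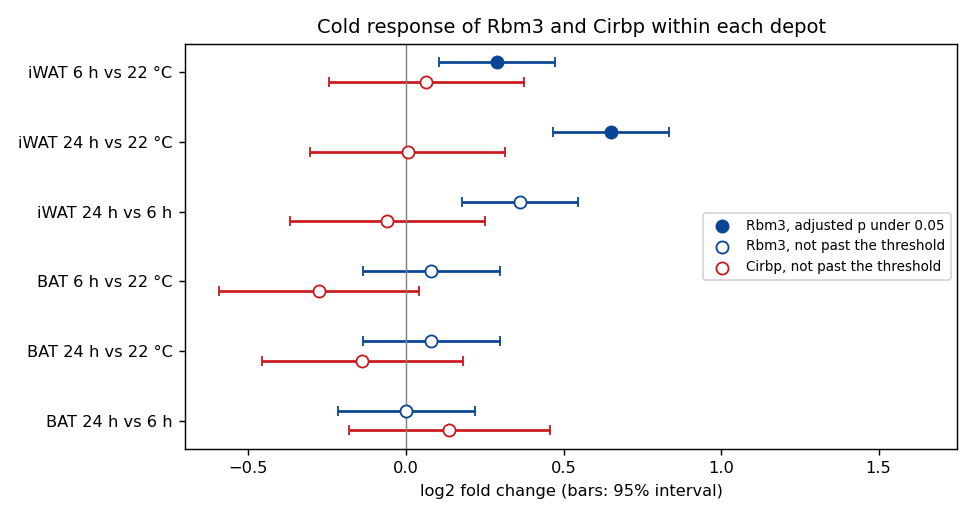
Log2 fold changes of Rbm3 (blue) and Cirbp (red) in the 6 comparisons within a depot, with 95% intervals; filled points had an adjusted p under 0.05 by edgeR. Rbm3 in iWAT stands at 0.29 after 6 h and 0.65 after 24 h, and every interval of Cirbp spans 0.

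In BAT, Rbm3 had 56.4, 56.2, 67.2, 60.3 and 64.1 CPM at 22 °C. After 6 h it had 68.5, 69.8, 61.5, 55.7 and 69.0 CPM, and after 24 h 59.0, 63.8, 85.3, 60.1 and 57.4 CPM. The groups overlapped, and replicate 3 at 24 h stood above every other BAT library. The means were 60.8 ± 4.82, 64.9 ± 6.13 and 65.1 ± 11.5 CPM (SD, n = 5 each). The log2 fold change was 0.08 ± 0.10 at 6 h (95% interval -0.14 to 0.30, adjusted p = 0.624 by edgeR), where 22.7% of 13090 genes were called. At 24 h it was 0.08 ± 0.10 (-0.14 to 0.30, adjusted p = 0.613), where 23.1% were called, and -0.03 without replicate 3. Between 24 h and 6 h it was 0.00 ± 0.10 (adjusted p = 0.997), in a comparison that called 13% of genes.

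Cirbp in BAT had 18.9, 13.1, 15.3, 13.3 and 18.4 CPM at 22 °C. It had 14.4, 15.6, 10.9, 11.6 and 13.4 CPM after 6 h, and 12.8, 14.3, 20.4, 12.3 and 12.9 CPM after 24 h. The groups overlapped, with 2 of 5 libraries at 6 h and 3 of 5 at 24 h below all controls, and replicate 3 at 24 h above all of them. The means were 15.8 ± 2.73, 13.2 ± 1.95 and 14.6 ± 3.36 CPM (SD, n = 5 each). The log2 fold change was -0.28 ± 0.15 at 6 h (95% interval -0.59 to 0.04, adjusted p = 0.203 by edgeR) and -0.14 ± 0.15 at 24 h (-0.46 to 0.18, adjusted p = 0.548). Without replicate 3 the 24 h value was -0.29. The change between cold times was 0.14 ± 0.15 (adjusted p = 0.582).

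**Figure D3:**
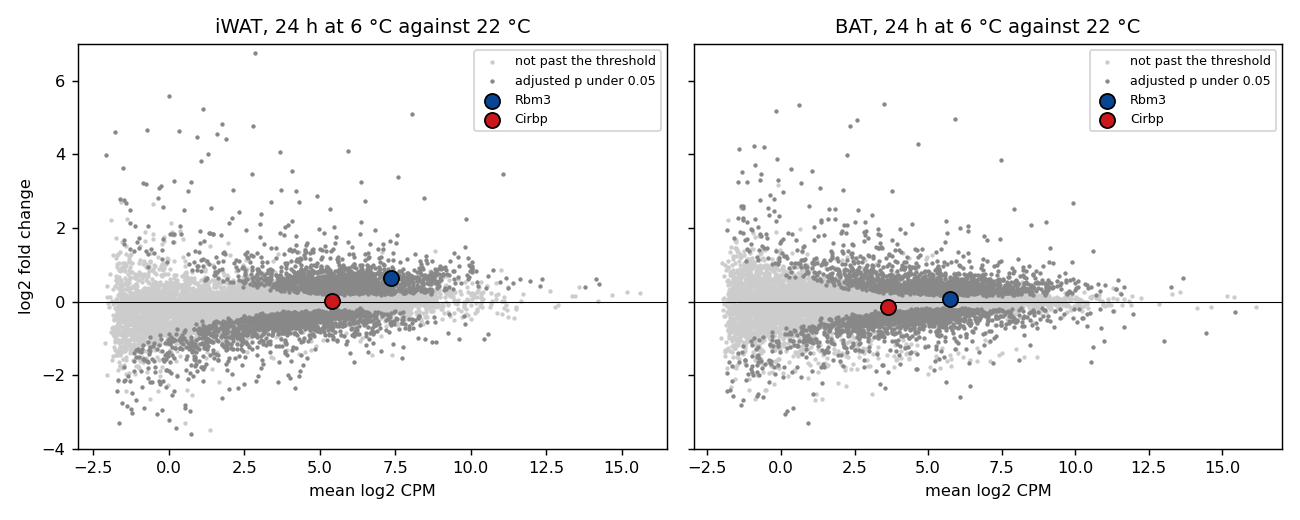
Log2 fold change at 24 h against mean log2 CPM for every gene tested in iWAT (left) and BAT (right), with genes past an adjusted p of 0.05 in darker grey and Rbm3 and Cirbp marked. Rbm3 lies at 0.65 in iWAT and 0.08 in BAT, and Cirbp at 0.01 and -0.14.

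The response to 24 h of cold differed between depots for Rbm3. The difference of log2 fold changes (BAT minus iWAT) was -0.57 ± 0.14 (95% interval -0.85 to -0.29, adjusted p = 0.0118 by edgeR), where 7.81% of 14089 genes were called. It was -0.41 (adjusted p = 0.0628) under library totals alone, with the median of all genes at 0.16. At 6 h the difference for Rbm3 was -0.22 ± 0.14 (-0.50 to 0.06, adjusted p = 0.328), where 9.4% were called. For Cirbp it was -0.35 ± 0.22 at 6 h (adjusted p = 0.320) and -0.14 ± 0.22 at 24 h (adjusted p = 0.744).

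Both members were lower in BAT than in iWAT at every condition, with no overlap between any BAT and any iWAT library. The share of all genes without such overlap is not given here. At 22 °C the mean CPM of Rbm3 in BAT was 55.5% of that in iWAT (log2 fold change -0.85 ± 0.10, adjusted p = 1.5e-08 by edgeR). The value for Cirbp was 44.8% (-1.16 ± 0.16, adjusted p = 2.07e-07), and 66.9% of all genes were called in that comparison. At 6 h the log2 fold change of BAT against iWAT was -1.07 ± 0.10 for Rbm3 and -1.51 ± 0.16 for Cirbp, where 66.2% of genes were called. At 24 h it was -1.42 ± 0.10 and -1.30 ± 0.16, where 63.6% were called. For Rbm3 the contrast was widest at 24 h, where its iWAT level was highest, and for Cirbp at 6 h.

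The size of the depot contrast depended on the scaling, with the TMM factors at 1.02 to 1.38 in iWAT and 0.754 to 0.879 in BAT. Scaled by totals alone, Rbm3 at 22 °C stood at -1.45, while the median of all genes moved from -0.04 to -0.65. Relative to that median, the value was -0.81 under TMM factors and -0.80 under totals alone. In bulk tissue, fewer cells of a type and less RNA per cell cannot be told apart. Mitochondrially encoded genes took 9.83 to 15.9% of counts in iWAT and 22.7 to 28.7% in BAT, and leaving them out gave -0.86 for Rbm3 at 22 °C.

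The order of the Rbm3 levels, from the highest, was iWAT at 24 h, 6 h and 22 °C and then BAT at 24 h, 6 h and 22 °C. The 3 BAT groups did not differ beyond their spread, and the iWAT groups at 6 h and 22 °C overlapped in range. For Cirbp the order was iWAT at 6 h, 24 h and 22 °C and then BAT at 22 °C, 24 h and 6 h, and neighbours within a depot did not differ beyond their spread.

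The ratio of Rbm3 to Cirbp CPM within a library does not depend on library totals or scaling factors. In iWAT it was 2.59, 3.08, 3.85, 4.05 and 2.44 at 22 °C, and 3.08, 3.70, 3.40, 4.63 and 3.70 after 6 h. After 24 h it was 5.93, 5.31, 3.61, 5.28 and 4.65. Of the 24 h libraries, 4 of 5 lay above all controls and replicate 3 lay among them. The difference of mean log2 ratios at 24 h was 0.64 (exact two-sided permutation test, p = 0.0238, adjusted p = 0.0714 over 6 comparisons), so the responses of the pair were not told apart after adjustment. Without 24 h replicate 3 it was 0.75 (exact permutation test, adjusted p = 0.0317). At 6 h the difference was 0.23 (exact permutation p = 0.230, adjusted p = 0.230), and from 6 h to 24 h it was 0.41 (exact permutation p = 0.0476, adjusted p = 0.0952).

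In BAT the ratio was 2.98, 4.29, 4.39, 4.52 and 3.49 at 22 °C. It was 4.74, 4.48, 5.66, 4.80 and 5.15 after 6 h, and 4.61, 4.45, 4.18, 4.87 and 4.45 after 24 h. At 6 h, 4 of 5 libraries lay above all controls. The difference of mean log2 ratios was 0.35 at 6 h (exact permutation p = 0.0159, adjusted p = 0.0714) and 0.21 at 24 h (exact permutation p = 0.127, adjusted p = 0.152). From 6 h to 24 h it was -0.14 (exact permutation p = 0.0873, adjusted p = 0.131). The smallest p that 252 divisions of 5 and 5 libraries allow is 0.00794, and all compared groups overlapped.

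**Figure D4:**
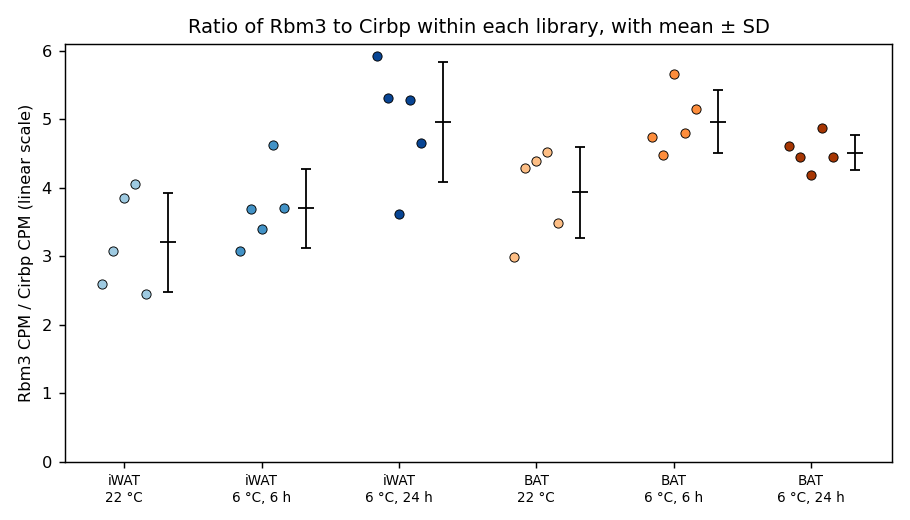
Ratio of Rbm3 CPM to Cirbp CPM (linear scale) in each library, with mean and SD of the 5 libraries of a group. The mean rises from 3.20 to 4.96 in iWAT between 22 °C and 24 h, and lies at 3.93, 4.97 and 4.51 in the BAT groups.

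After group means were subtracted, the log2 CPM of the members varied together with r = 0.74 over the 15 BAT libraries and r = 0.08 over the 15 iWAT libraries, as a description. Within BAT the value was 0.50 without 24 h replicate 3. Points share a library and its scaling factor.

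Among 9690 genes of at least 5 CPM, those whose log2 CPM followed Rbm3 most closely over the 30 libraries, after each tissue's mean was subtracted, were Mocs2 (r = 0.82), Psmc6 (0.81), Eif5 (0.79), Iws1 (0.77), Zfp617 (0.76) and Etfrf1 (0.76). Mocs2 makes subunits of molybdopterin synthase, Psmc6 is an ATPase subunit of the proteasome, and Eif5 is a translation initiation factor. Within the 15 iWAT libraries Iws1, a partner of the elongation factor Spt6, had r = 0.95 and Mocs2 r = 0.91, and within the 15 BAT libraries they had 0.54 and 0.46. Mocs2 rose in iWAT from 110 ± 18.9 CPM to 160 ± 16.5 at 6 h and 189 ± 14.8 at 24 h (SD, n = 5 each; log2 fold changes 0.52 and 0.76, adjusted p = 0.00524 and 0.000517 by edgeR). Mocs2 also rose in BAT at 24 h (0.39, adjusted p = 0.000706 by edgeR), where Rbm3 had 0.08.

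The genes most opposed to Rbm3 were Thbd (r = -0.74), Cmtm6 (-0.73) and Fam107b (-0.72). Thbd is the endothelial receptor thrombomodulin, and Cmtm6 stabilises the ligand PD-L1 at the cell surface. At 24 h in iWAT all 3 fell (log2 fold changes -1.16, -0.73 and -0.70, adjusted p = 0.00649, 0.000464 and 0.00195 by edgeR). The likeness and these fold changes come from the same libraries. Ranked by Spearman's rho, 4 of the 9 genes named for Rbm3 were again chosen. On log2(FPKM + 1), without TMM factors, Thbd had r = -0.48, Cmtm6 -0.49 and Fam107b -0.58. The 6 genes most like Rbm3 had 0.63 to 0.75 there.

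Cirbp had fainter likenesses, led by Arglu1 (r = 0.68), Myc (0.64), Gstt3 (0.64), Arrdc2 (0.62), Nudt16 (0.62) and Asph (0.60), and opposed by Mlec (-0.65), Mex3c (-0.63) and Gnao1 (-0.61). On log2(FPKM + 1), without TMM factors, Mlec had r = -0.29, Mex3c -0.32 and Gnao1 -0.65. The 6 leading genes had 0.59 to 0.76 there. Arglu1 is a coactivator and splicing regulator, and Myc is a growth-promoting transcription factor. Arglu1 moved little with cold (log2 fold changes of -0.01 and 0.04 in iWAT at 6 h and 24 h, and -0.10 and -0.09 in BAT), and none of these passed the test. Rbm3 and Cirbp had r = 0.23 with each other, at rank 1360 among the genes most like Cirbp and rank 3283 among those most like Rbm3.

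The list of 8 kinases that phosphorylate splicing factors holds the CLK and SRPK families and related kinases. Of these, 1 rose in iWAT at 24 h and none passed in the other 3 cold groups. The one that rose was Prpf4b, a related splicing kinase (log2 fold change 0.38, adjusted p = 0.0199 by edgeR). Clk1, whose protein phosphorylates SR proteins and becomes more active in the cold, had 0.07 ± 0.10 in iWAT and -0.31 ± 0.14 in BAT at 24 h. Clk4 had 0.21 ± 0.10 and -0.09 ± 0.09. Hnrnph1, reported to repress the decay exon of human RBM3, had 0.03 ± 0.09 and -0.06 ± 0.09. mRNA levels do not measure the activity of these proteins.

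Among SR proteins, the phosphorylated splicing factors, 1 of 12 tested rose in iWAT at 24 h (Srsf10, 0.23) and none passed at 6 h. In BAT 3 fell at 6 h (Srsf4 -0.34, Tra2b -0.25, Srsf5 -0.23), and at 24 h 3 rose and 1 fell (Srsf10 0.38, Srsf3 0.34, Srsf5 -0.38). Of 19 hnRNP genes, which encode nuclear RNA-packaging proteins, 3 rose in iWAT at 6 h and 4 at 24 h, with Hnrnpab at 0.31 and 0.25 and Hnrnpll at 0.29 and 0.23. In BAT 3 hnRNP genes rose at 6 h, and at 24 h 3 rose and 4 fell (Hnrnpul2 -0.33, Hnrnpu -0.26, Hnrnpa1 0.25). Of 13 factors of nonsense-mediated decay, 2 rose in iWAT at 6 h (Eif4a3 0.35 and Magoh 0.31, both of the exon junction complex) and none passed at 24 h. In BAT 1 rose and 3 fell at 6 h (Smg5 0.37, Upf3a -0.42, Smg6 -0.40), and 1 fell at 24 h (Upf3a -0.34).

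Of the 11 relatives of the members with an RNA recognition motif, none passed in iWAT at either time. In BAT 2 rose at 6 h (Rbm4 0.73, Rbmx 0.24), and 3 fell at 24 h, among them Rbm4b (-0.34) and Ewsr1 (-0.31). In the list of cold-shock domain genes and related nucleases and helicases, 1 of 9 tested rose in iWAT at 6 h and 2 of 9 at 24 h, among them the exosome nuclease Dis3 at 24 h (0.37, adjusted p = 0.00928 by edgeR). In BAT 2 of 10 rose and 2 fell at 6 h (Dhx8 0.42, Carhsp1 -0.46, Dis3l -0.32), and 1 fell at 24 h (Dis3l -0.20).

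Of the 12 tested genes reported to regulate or bind Cirbp or Rbm3, 2 rose and 2 fell in iWAT at 6 h, and 2 rose and 4 fell at 24 h. The cation channel Trpv3 (-0.71 and -0.89), the receptor Tlr4, which extracellular Cirbp binds (-0.40 and -0.35), and at 24 h the neurotrophin receptor Ntrk2 (-0.62) were lower. The arginine methyltransferase Prmt1 was higher at 6 h (0.35). In BAT none passed at 6 h and 1 fell at 24 h (Gsk3b -0.32). Sp1 had -0.26 ± 0.10 and -0.11 ± 0.10 in iWAT, and did not pass.

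Heat shock factor and chaperone genes, which classically answer heat, rose in 6 of 18 in iWAT at 6 h and 8 of 18 at 24 h (median 0.42, all genes -0.04), and in 11 of 18 in BAT at 6 h (median 0.61, all genes -0.01) but 2 of 18 at 24 h. Hspa8, the constitutive Hsc70 chaperone, rose in iWAT at 24 h (1.08 ± 0.20, adjusted p = 0.00181 by edgeR) and in BAT at 6 h (1.00 ± 0.12, adjusted p = 2.68e-05). Hsp90aa1 rose in BAT at 6 h from 459 ± 107 to 1454 ± 133 CPM (1.65 ± 0.14). Hsf1 itself did not pass in any of the 4 cold groups (-0.13 to 0.16). In BAT at 6 h, where 11 of these 18 genes rose and 7 did not pass, Rbm3 stood at 0.08 and Cirbp at -0.28.

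The list counts in iWAT depended on the scaling, and some in BAT did as well. In iWAT under library totals alone, the median of the CLK and SRPK kinases at 24 h moved from 0.11 to -0.05, of the hnRNP proteins from 0.06 to -0.10, of the SR proteins from 0.06 to -0.10 and of the cold-shock domain genes from 0.11 to -0.05. Then 2 cold-shock domain genes, 1 SR gene, 1 of the 11 relatives and 4 of the 12 regulators and partners were called lower at 24 h. At 6 h those called lower were 6 of 19 hnRNP genes, 5 of 13 decay factors, 4 of the 11 relatives, 3 of 12 SR genes, 8 of the 12 regulators and partners, 1 kinase and 1 cold-shock domain gene, with none of these lists holding a call in the other direction. The chaperone genes stayed at 8 of 18 higher at 24 h, with a median of 0.26, but at 6 h only 1 was called. In BAT at 6 h the 11 relatives, with 2 higher under TMM factors, had 0 higher and 1 lower under upper-quartile factors. Totals alone gave 1 higher and 1 lower there. At 24 h in BAT the relatives stayed at 3 lower under both. Of all 13689 genes tested in iWAT, totals alone called 607 higher and 4176 lower at 6 h, and 1012 and 2985 at 24 h. The list counts under totals alone are to be read against these. These lists were chosen with results of these data known. Under TMM factors, their shares called may be read against the 23% of all genes called in iWAT at either time. In BAT 22.7% were called at 6 h and 23.1% at 24 h.

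**Figure D5:**
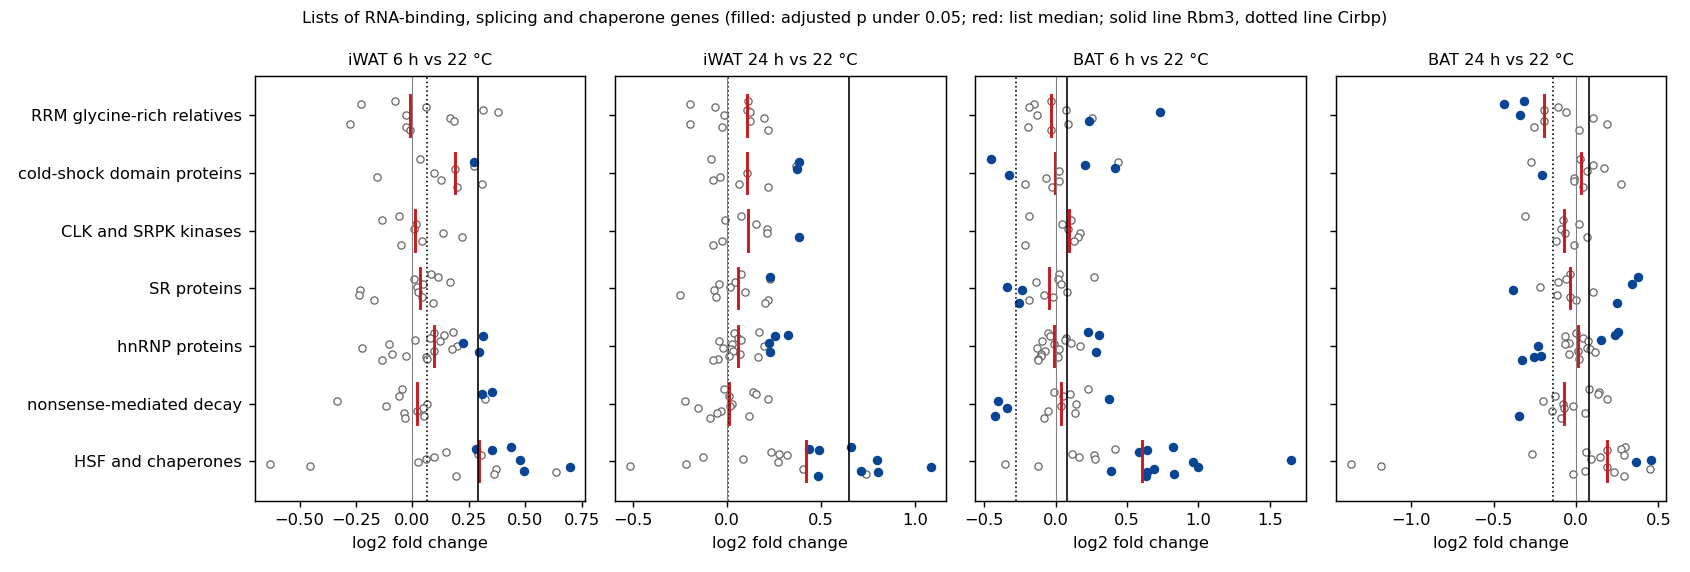
Log2 fold change of each tested member of 7 gene lists in the 4 cold groups against 22 °C (filled points: adjusted p under 0.05 by edgeR; red bars: list medians; solid line Rbm3, dotted line Cirbp; the horizontal scales differ between panels). In iWAT at 24 h Rbm3 at 0.65 lies to the right of every list median, the highest of which is 0.42. In BAT at 6 h it lies at 0.08 against a chaperone median of 0.61. Under library totals alone the iWAT medians of all lists except the chaperones are below 0. So are the medians of all genes, at -0.26 at 6 h and -0.20 at 24 h.

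Markers of several cell types moved in iWAT alongside Rbm3, and some moved in BAT, where Rbm3 did not pass the test. The values that follow are for iWAT unless BAT is named. The summed level of 9 progenitor and fibroblast markers was 2576 to 4766 CPM at 22 °C, 1674 to 2891 at 6 h and 1515 to 2377 at 24 h, and none of the 9 was at 0. That of 8 adipocyte markers was 27740 to 36435, 38641 to 43725 and 36632 to 42448 CPM. Of these 8, 3 were called higher at 6 h (median log2 fold change 0.28) and 2 at 24 h (0.10), and the others did not pass. The 8 brown adipocyte markers summed to 126 to 1200 CPM at 22 °C, 676 to 5425 at 6 h and 2969 to 4950 at 24 h, with Zic1 at 0 in all libraries of the 24 h group. Smooth muscle and pericyte markers summed to 441 to 497 CPM at 22 °C and to 242 to 385 CPM at 24 h. Gene by gene, 1 of these 6 was called lower at 24 h and 5 did not pass (median log2 fold change -0.01). Endothelial markers (364 to 669 CPM at 22 °C, 381 to 490 at 24 h), macrophage markers (184 to 414 and 189 to 331) and nerve markers (48.0 to 191 and 62.8 to 107, with Th at 0) overlapped between those groups in their sums. Gene by gene, 4 of 8 endothelial markers were called lower at 6 h (median log2 fold change -0.43) and 4 of 8 at 24 h (-0.35), and 3 of 8 macrophage markers at 6 h (-0.62) and none at 24 h (-0.42). Progenitor and fibroblast markers were called lower in 5 of 9 at 6 h (-0.70) and 3 of 9 at 24 h (-0.88). Of all 13689 genes tested in iWAT, 1379 were called lower and 1769 higher at 6 h. At 24 h these were 1388 and 1757. Lymphocyte and lymph node markers were at 3.01 to 13.2 CPM in all iWAT libraries. In BAT, adipocyte markers summed to 24157 to 28356 CPM at 22 °C and 32713 to 38258 at 24 h. Brown adipocyte markers summed to 12964 to 16429 and 18617 to 22346 CPM, and smooth muscle and pericyte markers to 637 to 712 and 453 to 520. The sums of the other lists overlapped there. Gene by gene in BAT at 24 h, 3 of 8 adipocyte markers were called higher and 1 lower. The part of these shifts in the Rbm3 result was not tested in either depot.

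The counts are per gene, so they pool the transcripts of each. The GENCODE M21 annotation lists 7 transcripts of Cirbp and 11 of Rbm3, including forms ascribed to nonsense-mediated decay and retained introns, and a change of isoform at a constant total would not appear in these values. An antisense gene, Rbm3os, overlaps Rbm3 on the other strand, and whether counting used strand is not given in the sources used here, so reads of the pair may not be told apart. A processed pseudogene of Rbm3 is annotated as well, and its effect on the counts was not tested. The gene next to Rbm3, Wdr13, was chosen after its values were seen: it had -0.12 (adjusted p = 0.197 by edgeR) in iWAT and fell by 0.43 in BAT at 24 h (adjusted p = 0.000121). Other neighbours of the members, Tbc1d25, Midn, Fam174c and Efna2, were chosen in the same way. None of them passed in a cold comparison within a depot.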

How the data were processed

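Gene-level values came from 30 libraries of poly(A) RNA, 5 in each of 6 groups. The deposited counts were whole, unscaled read counts per gene made by the authors, and in the deposited FPKM the authors scaled those counts by library total and gene length. HISAT2, HTSeq and GRCm39 are named in the submitters' processing notes, without versions. Tests on counts used edgeR 4.0.16 in R 4.3.3, with filterByExpr with a minimum count of 10, TMM factors, the quasi-likelihood F test and Benjamini-Hochberg adjustment over all genes tested, calling an adjusted p under 0.05. Each tissue's 15 libraries were fitted together, and the depot comparisons used all 30. CPM used the TMM factors of all 30 libraries. The calling was also run on counts simulated from the spread fitted to these libraries, with changes planted at 24 h only. Its outcome is not reported here, and it cannot bear on the 6 h calls or on the choice of scaling. Both members passed the filter. Errors are SD for levels and SE (size over the root of F) for log2 fold changes.

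The log2 ratio of the members was tested by an exact permutation test (Python 3.11.15, SciPy 1.17.1), adjusted over 6 comparisons. Likeness was Pearson's r of log2 CPM with each tissue's mean subtracted. Named were the 6 highest and 3 lowest of each member, up to 3 called members of each list by size, and Clk1, Clk4, Hnrnph1, Hspa8, Hsf1, Ucp1 and Ppargc1a. The members and lists were chosen with earlier results of these data known. Alternatives were upper-quartile and RLE factors, DESeq2 1.42.0, limma 3.58.1 on log2(FPKM + pseudocount) at 1 and 0.1, the filters none and 1 CPM in 5 libraries, no mitochondrially encoded genes, only the groups compared, the replicate number as a block, and leaving out each library. Scaling by library totals alone was added after seeing the data. Promoters came from RefSeq (GRCm38.p6) and transcripts from GENCODE M21, which differ in build from the files and were used for no count. Some list members are not reported here.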

Additional observations from a re-analysis of the deposited data

Results flagged for a closer look

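In BAT after 24 h at 6 °C, replicate 3 stood far above the other 4 libraries for both members. Rbm3 was at 85.3 CPM there against 57.4 to 63.8 CPM in the others, and Cirbp at 20.4 against 12.3 to 14.3 CPM. The gap to the nearest library was 0.769 of the group's range for Rbm3 and 0.751 for Cirbp, above Dixon's value of 0.71 for 5 libraries. The ratio of Rbm3 to Cirbp in that library was 4.18, the lowest of its group but inside the range of the BAT controls. Chance sets a library apart in about 1 in 20 groups, and 18 groups of 5 libraries were checked.

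The 24 h response of Rbm3 differed between the depots by the test of the difference itself (-0.57 on the log2 scale, BAT minus iWAT, adjusted p = 0.0118 by edgeR). Without BAT 24 h replicate 3 it was -0.69.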

How the results depend on the processing

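Over 28 results and 586 alternative values, 572 kept their direction where called and their side of the threshold. Of the results, 23 kept both under every alternative run. Some kept values of the log2 ratio could not have come out otherwise. The log2 ratio of FPKM differs from that of CPM by a constant, so its tests repeat the main ones. With the replicate number as a block, the exact test of the ratio has too few arrangements to pass the threshold. These values say nothing about robustness. The results that did not keep both were these. Rbm3 in iWAT at 6 h (0.29) lost its call under upper-quartile factors (0.22, adjusted p = 0.0791), library totals alone (0.062, 0.597; chosen after seeing the data), and limma on FPKM, at a pseudocount of 1 (0.057, 0.597) and of 0.1 (0.059, 0.6), and ranged from 0.26 to 0.37 (adjusted p 0.00503 to 0.0682) when each library was left out. Rbm3 from 6 h to 24 h in iWAT was called by DESeq2 (0.36, 0.0235). The depot difference of its 24 h response was -0.41 (0.0628) under totals alone. The log2 ratio in iWAT ranged from 0.55 to 0.75 (24 h against 22 °C) and from 0.34 to 0.52 (24 h against 6 h) when each library was left out, both passing without 24 h replicate 3 (exact permutation test, adjusted p = 0.0317). The cause was not tested, apart from the shift of all genes under totals alone. With the replicate number as a replicate block, Rbm3 in iWAT was 0.29 (0.0349) at 6 h and 0.65 (0.00152) at 24 h, and the depot difference -0.57 (0.0142), so no call of a member changed. Libraries of a tissue with the same number correlated at -0.46 to 0.42 (median 0.05, 30 pairs). Between tissues the values were -0.57 to 0.54 (median 0.02, 45 pairs). The pairs between tissues pool all conditions, so they cannot show whether an iWAT and a BAT library came from the same mouse. Of all genes, iWAT at 6 h called 4783 under totals alone and 4899 by limma with a pseudocount of 1, against 3148, and iWAT 24 h against 6 h called 0 to 109. The lowest count of a member in a library was 287, for Cirbp in BAT.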
